A study of Homo sapiens with 12 samples.

Results

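CD23, the Fc receptors for IgE and IgG, and the Fc receptor-like (FCRL) proteins were followed across 4 groups of cells of Hodgkin lymphoma lines. The 10 genes are FCER2, which encodes CD23, FCER1A, FCER1G, FCGR2A, FCGR2B, FCRLA, FCRL1, FCRL2, FCRL3 and FCRL5. They were taken as every row of the deposited value table whose platform annotation lists 1 of these symbols, which gave 11 of 32321 rows; 20546 rows carried any gene symbol. Of the 11 rows, 10 named a single gene and 1 was annotated with both FCGR2C and FCGR2B, so that no single gene can be named for it. The genes were chosen by their log2 values in all 4 groups, with results of these same arrays known, and their differences are therefore given as descriptions, without p-values.

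The lines were L-428 and L-1236, established Hodgkin lymphoma cell lines obtained from DSMZ. Cells of each line were transduced with a vector for the fluorescent protein tGFP alone or for tGFP together with the transcription factor EBF1, the latter written tGPF-IRES-EBF1 in the labels. The cells were kept for 8 days after transduction, and tGFP-positive cells were sorted, so that both the tGFP and the tGFP/EBF1 groups consisted of transduced, sorted cells. Total RNA was amplified, biotin-labelled and measured on Affymetrix whole-transcript arrays, 12 in all and 3 per group. The design text calls the 3 samples of a group independent, without saying whether they came from separate transductions, and the spread given here is the spread between these samples, which may be technical. A whole-population array cannot tell fewer cells with a transcript from less of that transcript per cell.

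Fc receptors bind the constant part of antibodies and so tie antibody specificity to the responses of a cell. CD23 is the low-affinity receptor for IgE, a C-type lectin unrelated in structure to the other Fc receptors, and a classical surface protein of activated and mature B cells that is induced through interleukin 4, STAT6 and CD40. The high-affinity IgE receptor of mast cells and basophils consists of an IgE-binding alpha chain (FCER1A), a beta chain and the gamma chain (FCER1G), whose ITAM motif recruits the kinase SYK. Among the IgG receptors, FCGR2A carries an activating ITAM in its own tail, whereas FCGR2B carries an ITIM that recruits the phosphatase SHIP1 and dampens signals of the B-cell receptor. FCRL1 to FCRL5 are B-cell surface relatives of the IgG receptors with ITAM-like and ITIM motifs, and FCRLA is an intracellular relative found in B cells. EBF1 is a factor of early and mature B cells, whose programme is largely silent in Hodgkin cells.

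The start regions of the genes whose values differed between groups are shown first, since EBF1 and the STAT factors act through DNA. The sequences come from RefSeq (GRCh38.p14), in which all 10 genes matched and gave 12 start windows. Shown are the 250 bases before the annotated start of FCER2, FCER1A, FCGR2A and FCGR2B, with up to 7 further bases where a motif spans the start, each 5′ to 3′ on the strand of the gene. Capitals mark the motifs searched for, on either strand: CCCNNGGG for EBF factors, TTCNNNGAA for STAT factors, the same letters with 1 more base between TTC and GAA for STAT6, and GAGGAA for PU.1. No matches overlapped in the windows shown. FCER2 has 2 annotated starts, an inner one at chr19:7699442-7699691 (minus strand) and an outer one at chr19:7702125-7702381 (minus strand). The FCER1A window is chr1:159302086-159302335, that of FCGR2A chr1:161505207-161505456, and those of FCGR2B chr1:161646993-161647242 and chr1:161662893-161663142, all on the plus strand.
FCER2 inner start: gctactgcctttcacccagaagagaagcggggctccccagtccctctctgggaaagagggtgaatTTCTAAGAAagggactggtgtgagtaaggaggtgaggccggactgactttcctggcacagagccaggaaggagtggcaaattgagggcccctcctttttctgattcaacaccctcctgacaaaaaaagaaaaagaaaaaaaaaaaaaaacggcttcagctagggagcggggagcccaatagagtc
FCER2 outer start: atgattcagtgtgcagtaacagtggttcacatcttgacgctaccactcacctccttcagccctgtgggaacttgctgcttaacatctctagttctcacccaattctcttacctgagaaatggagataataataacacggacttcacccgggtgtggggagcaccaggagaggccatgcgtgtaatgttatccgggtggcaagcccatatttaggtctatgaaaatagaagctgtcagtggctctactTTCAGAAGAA
FCER1A start: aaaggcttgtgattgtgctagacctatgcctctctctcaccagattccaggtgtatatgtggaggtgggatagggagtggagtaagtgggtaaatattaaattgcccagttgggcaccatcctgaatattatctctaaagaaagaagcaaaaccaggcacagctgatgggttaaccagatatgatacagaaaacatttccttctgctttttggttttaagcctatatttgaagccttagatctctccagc
FCGR2A start: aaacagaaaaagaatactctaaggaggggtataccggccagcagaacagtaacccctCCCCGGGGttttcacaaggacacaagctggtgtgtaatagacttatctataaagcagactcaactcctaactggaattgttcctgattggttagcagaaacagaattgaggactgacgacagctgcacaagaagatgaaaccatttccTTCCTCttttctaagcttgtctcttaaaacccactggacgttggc
FCGR2B upstream start: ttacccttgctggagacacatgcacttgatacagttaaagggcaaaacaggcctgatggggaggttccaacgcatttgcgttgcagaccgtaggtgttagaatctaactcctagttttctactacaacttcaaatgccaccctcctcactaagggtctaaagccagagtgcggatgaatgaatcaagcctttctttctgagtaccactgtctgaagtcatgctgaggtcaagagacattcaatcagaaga
FCGR2B downstream start: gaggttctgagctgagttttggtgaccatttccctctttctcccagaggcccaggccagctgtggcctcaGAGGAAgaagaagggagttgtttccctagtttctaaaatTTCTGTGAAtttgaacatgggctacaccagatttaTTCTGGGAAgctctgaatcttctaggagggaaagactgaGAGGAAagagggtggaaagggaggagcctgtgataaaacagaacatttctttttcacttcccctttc

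Positions are counted from the start, with the last base before it at -1 and the first base of the transcript at 1. The inner FCER2 window held the STAT letters TTCTAAGAA from -185 to -177, and the outer window held the STAT6 letters TTCAGAAGAA from -3 to 7, across the start itself. Neither FCER2 window held CCCNNGGG. The FCGR2A window held the EBF letters CCCCGGGG from -193 to -186 and a PU.1 match from -45 to -40 on the other strand. The downstream FCGR2B window held 2 STAT matches, TTCTGTGAA and TTCTGGGAA, and 2 PU.1 matches, whereas the upstream FCGR2B window and the FCER1A window held none of the 4 motifs. Over all 12 windows of the genes, at 300 bases each, CCCNNGGG occurred in 1, TTCNNNGAA in 3, the STAT6 letters in 3 and GAGGAA in 4. Among all 35116 RefSeq start windows of that length the shares were 19.1%, 7.66%, 6.44% and 27.9%, in the same order. A match describes letters and not a bound site, a window without a match says nothing about the factor, and the array gives 1 value for all FCER2 transcripts, so the use of the 2 starts was not measured.

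The FCER2 row was higher with EBF1 in both lines and was also higher in L-1236 than in L-428 before any EBF1 was added. Values throughout are deposited signals on a log2 scale, on which 1 unit is a 2-fold change; levels are compared only within a row. In L-428 tGFP cells FCER2 was at 8.47, 8.52 and 8.29 (8.43 ± 0.12, SD, n = 3), and in L-428 tGFP/EBF1 cells at 10.77, 10.81 and 10.79 (10.79 ± 0.018, SD, n = 3). In L-1236 tGFP cells it was at 10.77, 10.79 and 10.69 (10.75 ± 0.050, SD, n = 3), and in L-1236 tGFP/EBF1 cells at 12.02, 12.16 and 12.12 (12.10 ± 0.071, SD, n = 3). In neither line did the groups with and without EBF1 overlap, whereas the arrays of L-428 with EBF1 overlapped those of L-1236 without it. The difference was 2.36 in L-428 (standard error, SE, 0.066; 95% interval 2.22 to 2.50), a 5.13-fold higher signal. In L-1236 it was 1.35 (SE 0.066; 1.21 to 1.48), a 2.54-fold higher signal. The L-428 difference exceeded the L-1236 difference by 1.01 (SE 0.093; 0.82 to 1.21). The control cells of L-428 lay 2.32 below those of L-1236, so that the 4 groups ran from L-428 tGFP through the overlapping middle pair to L-1236 tGFP/EBF1.

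**Figure D1:**
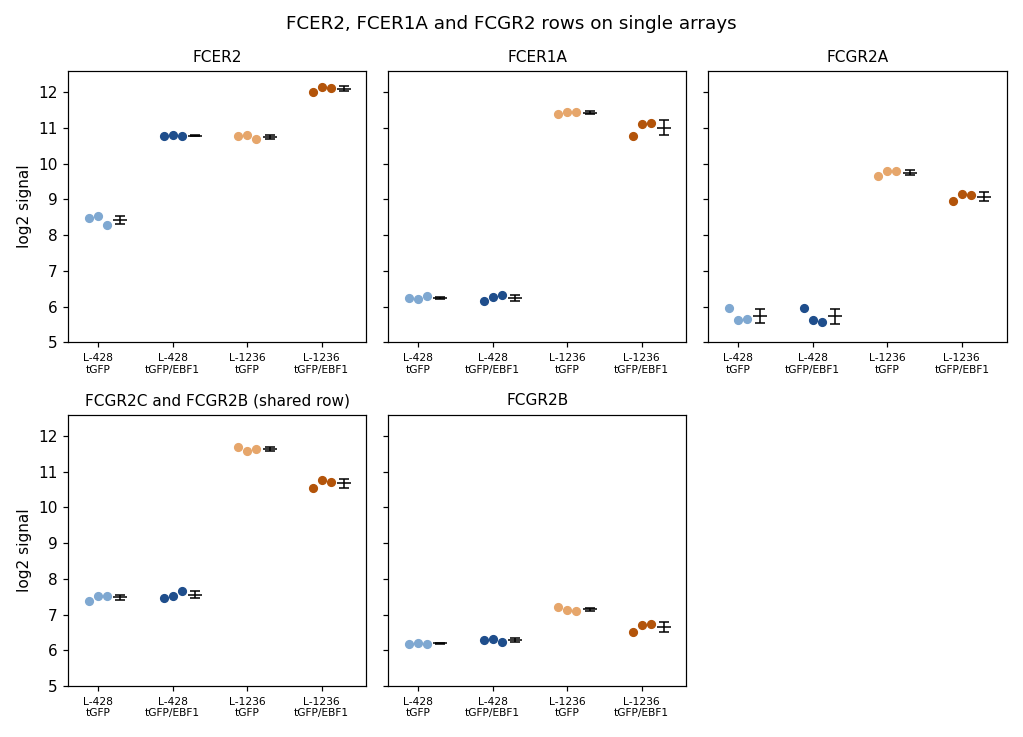
Log2 signal on each of the 12 arrays for the 5 rows with large differences between groups; points are single arrays, and the cross and bar beside them are the mean and SD (n = 3). FCER2 is higher with EBF1 in both lines, whereas FCER1A and the 3 FCGR2 rows lie higher on all L-1236 arrays than on any L-428 array and are lower with EBF1 in L-1236.

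FCER1A, the IgE-binding chain of the high-affinity receptor, had its high signal in L-1236 alone. Its signal was 6.24, 6.22 and 6.28 in L-428 tGFP cells and 6.16, 6.27 and 6.32 in L-428 tGFP/EBF1 cells, and the 2 groups overlapped. In L-1236 tGFP cells it was 11.38, 11.46 and 11.43 (11.42 ± 0.039, SD, n = 3), and in L-1236 tGFP/EBF1 cells 10.77, 11.12 and 11.13 (11.00 ± 0.21, SD, n = 3). All L-1236 arrays lay far above all L-428 arrays, and within L-1236 the arrays with EBF1 were all below those without it. The L-1236 control cells exceeded the L-428 control cells by 5.18, or 36.1-fold, which may be a lower limit because the L-428 level could not be set against a background signal here. The EBF1 difference was 0.00048 in L-428 (95% interval -0.17 to 0.17) and -0.42 in L-1236 (SE 0.081; -0.59 to -0.25). Replicate 1 of L-1236 tGFP/EBF1, the array with the narrowest spread of all values, was the lowest of its group. Without it the L-1236 difference was -0.30.

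FCER1G, the gamma chain that FCER1A and several activating IgG receptors need at the cell surface, stayed low on every array. It lay between 5.96 and 6.14 in L-428 tGFP cells, between 5.91 and 6.03 in L-428 tGFP/EBF1 cells, between 6.14 and 6.32 in L-1236 tGFP cells and between 6.02 and 6.22 in L-1236 tGFP/EBF1 cells. The EBF1 differences were -0.077 in L-428 (-0.23 to 0.073) and -0.14 in L-1236 (-0.29 to 0.014), with overlapping arrays in both lines. Its control level was lower by 0.19 in L-428, a difference that no longer passed the fit in 6 of 20 alternatives. The high FCER1A signal of L-1236 stood beside an FCER1G row that differed between the control groups by far less. The beta chain gene of that receptor, MS4A2, was looked for and had no row under its symbol. Of the 6 mast cell and basophil markers examined, MS4A2 among them, 4 had a row (KIT, CPA3, HDC and GATA2). None of the 4 passed the fit in any comparison between groups, and the mean of the 4 lay between 6.21 and 6.44 on the 12 arrays. KIT, the stem cell factor receptor of mast cells, had group means from 5.76 to 5.86.

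FCGR2A, the activating low-affinity IgG receptor, followed the same order of groups as FCER1A. It was at 5.97, 5.63 and 5.65 in L-428 tGFP cells and at 5.97, 5.63 and 5.58 in L-428 tGFP/EBF1 cells. In L-1236 tGFP cells it was at 9.67, 9.79 and 9.78 (9.75 ± 0.069, SD, n = 3), and in L-1236 tGFP/EBF1 cells at 8.94, 9.16 and 9.14 (9.08 ± 0.12, SD, n = 3). The L-428 groups overlapped almost wholly, and the L-1236 groups did not overlap. The EBF1 difference was -0.67 in L-1236 (SE 0.10; -0.88 to -0.45), a 1.59-fold lower signal, and -0.023 in L-428 (-0.24 to 0.19). L-428 control cells minus L-1236 control cells gave -4.0 (-4.21 to -3.78).

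The row annotated with FCGR2C and FCGR2B gave the same picture at 7.39, 7.53 and 7.53 in L-428 tGFP cells and 7.48, 7.52 and 7.66 in L-428 tGFP/EBF1 cells. In L-1236 tGFP cells it was at 11.70, 11.58 and 11.64 (11.64 ± 0.057, SD, n = 3), and in L-1236 tGFP/EBF1 cells at 10.54, 10.77 and 10.71 (10.67 ± 0.12, SD, n = 3). FCGR2C and FCGR2B are near-identical copies over much of their length, and the row cannot say which of them was measured. Its EBF1 difference of -0.97 in L-1236 (SE 0.072; -1.12 to -0.82), a 1.95-fold lower signal, was the largest decrease among the 11 rows and fell just short of the study's 2-fold limit. In L-428 the difference was 0.071 (-0.080 to 0.22). The control cells of the lines differed by 4.16, or 17.9-fold, again with L-1236 higher.

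The row of FCGR2B alone, the inhibitory IgG receptor of B cells, moved in the same direction over a narrower range. It was at 6.19, 6.21 and 6.19 in L-428 tGFP cells and at 6.29, 6.33 and 6.23 with EBF1. In L-1236 it was at 7.20, 7.14 and 7.10 (7.15 ± 0.051, SD, n = 3) in tGFP cells and at 6.50, 6.71 and 6.75 (6.65 ± 0.13, SD, n = 3) in tGFP/EBF1 cells. The arrays of the 2 groups did not overlap in either line. The difference was -0.49 in L-1236 (SE 0.066; -0.63 to -0.35) and 0.085 in L-428 (-0.054 to 0.22), and the latter did not pass the fit. The FCGR2 genes lie in a duplicated stretch and share sequence, so their 3 rows may share signal and are not 3 independent readings.

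The 5 Fc receptor-like genes, whose proteins sit on or in B cells, showed low signals and small differences in all 4 groups. FCRLA was at 6.54, 6.39 and 6.57 in L-428 tGFP cells and at 6.67, 6.77 and 6.68 with EBF1, a difference of 0.21 (SE 0.062; 0.077 to 0.34). These L-428 arrays did not overlap, but the row did not pass the fit across the table; it passed in 4 of 21 alternatives, 1 of them without L-428 tGFP replicate 3, at 0.24. In L-1236 its groups overlapped and differed by 0.011 (-0.12 to 0.14).

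FCRL3 was at 6.27, 6.29 and 6.21 in L-1236 tGFP cells and at 6.51, 6.45 and 6.39 in L-1236 tGFP/EBF1 cells. Its difference of 0.19 (SE 0.058; 0.071 to 0.31) passed the fit, without overlap of the arrays. This call was lost in 13 of 21 alternatives, among them every fit without 1 array except those without L-428 tGFP replicate 2 or 3; with array weights the difference was 0.13. In L-428 FCRL3 was at 6.40, 6.33 and 6.44 without EBF1 and 6.45, 6.51 and 6.50 with it, which did not overlap and differed by 0.10 (-0.021 to 0.22) without passing the fit.

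The remaining Fc receptor-like rows passed the fit for EBF1 in neither line. FCRL1 lay between 6.67 and 7.11 over the 12 arrays, with differences of 0.12 in L-428 (-0.029 to 0.27) and 0.044 in L-1236 (-0.11 to 0.19). FCRL2 lay between 5.64 and 5.96, with differences of -0.053 (-0.19 to 0.080) and 0.060 (-0.073 to 0.19). FCRL5 lay between 6.02 and 6.23, with differences of 0.030 (-0.11 to 0.17) and 0.035 (-0.11 to 0.17). The arrays of these 3 genes overlapped between tGFP and tGFP/EBF1 cells in both lines. The intervals leave room for changes of up to about 0.27 on the log2 scale. For 7 of the 11 rows, FCER1G, FCGR2B and the 5 Fc receptor-like genes, every value lay below 7.26, the median of all values on the arrays, where a change in the transcript may be compressed.

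**Figure D2:**
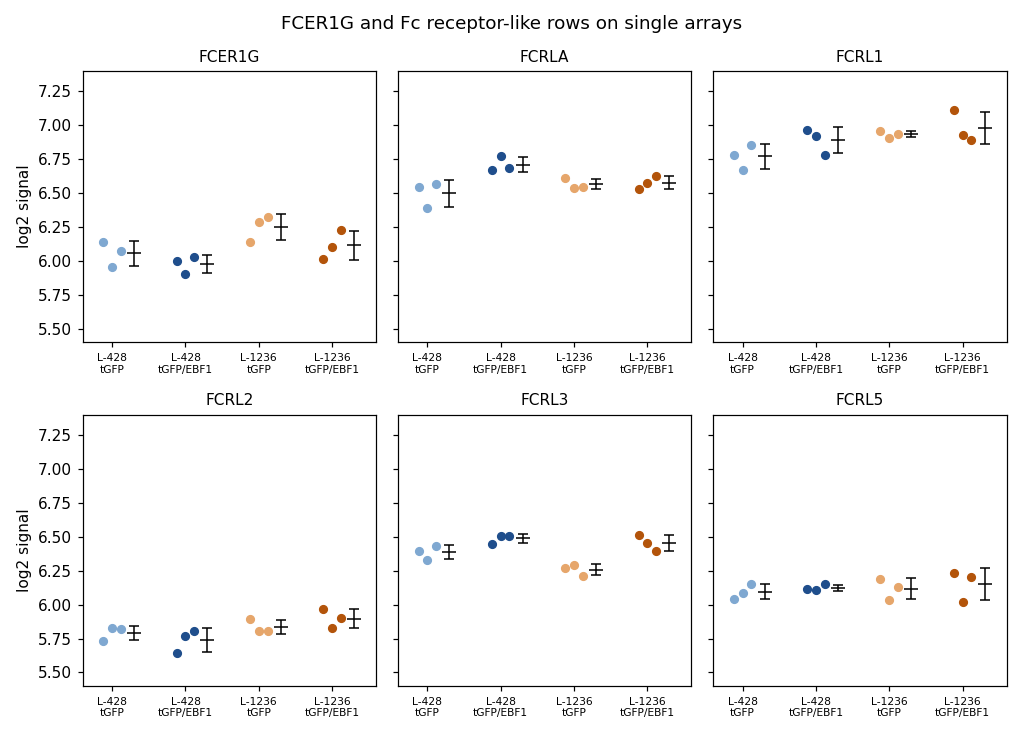
Log2 signal on each of the 12 arrays for FCER1G and the 5 Fc receptor-like rows; points are single arrays, and the cross and bar are the mean and SD (n = 3). The axis spans 2 units, and every value lies between 5.64 and 7.11.

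Across the 11 rows, FCER2 alone passed in both lines. A row passed where its limma adjusted p over all 20546 rows with a symbol was at most 0.05, and the study's own limit adds a change of at least 2-fold. In L-428, 1 row passed, FCER2, which was higher; 4.34% of all rows passed and 2.62% passed with a higher signal, and the median difference was 0.071 for the 11 rows against 0.0037 for all. The 2-fold limit was met by FCER2, higher with EBF1, as by 0.0779% of all rows. In L-1236, 6 rows passed. FCER2 and FCRL3 were higher, and FCER1A, FCGR2A, FCGR2B alone and the row annotated with FCGR2C and FCGR2B were lower. There 9.64% of all rows passed, 3.69% higher and 5.95% lower. The medians were 0.011 for the 11 rows and 0.0080 for all. The 2-fold limit was met there by FCER2, again higher, as by 0.0876% of all rows. Single arrays did not overlap for 4 of the 11 rows in L-428, where 18.3% of all rows did not overlap, and for 6 in L-1236, where 26.7% did not. The genes were chosen with these comparisons in view, so nothing is read from these counts.

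**Figure D3:**
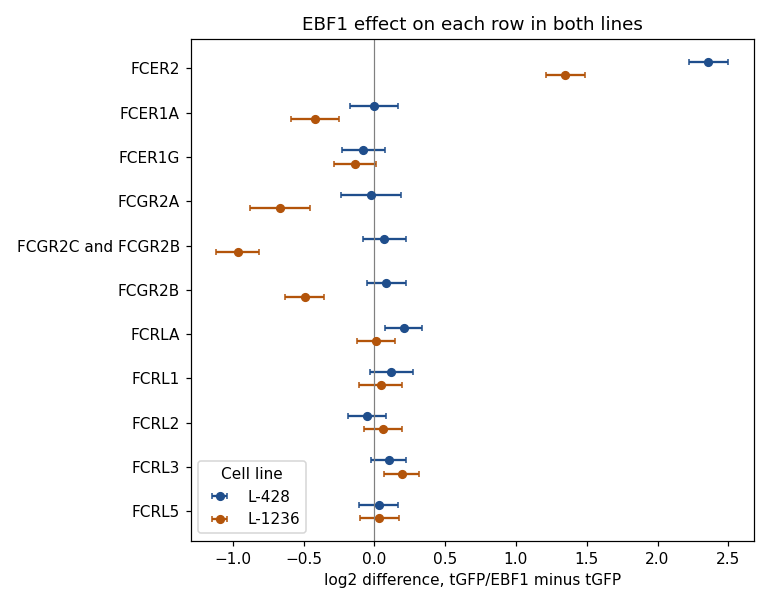
Difference in log2 signal between tGFP/EBF1 and tGFP cells for the 11 rows in L-428 (blue) and L-1236 (orange); points are limma estimates and bars their 95% intervals. FCER2 lies right of 0 in both lines, and FCER1A and the 3 FCGR2 rows lie left of 0 in L-1236, at -0.42 to -0.97, and near 0 in L-428.

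The size of the EBF1 difference was also set against the line directly, as the L-428 difference minus the L-1236 difference. It passed for 5 rows and was above 0 in each, beside 5.16% of all rows in either direction and 3.38% above 0. FCER2 gave 1.01, the row annotated with FCGR2C and FCGR2B 1.04 (0.82 to 1.25), FCGR2A 0.64 (0.34 to 0.94), FCGR2B 0.58 (0.38 to 0.77) and FCER1A 0.42 (0.18 to 0.66). For FCER2 this was a larger increase in L-428, and for the other 4 rows a decrease in L-1236 that L-428 did not show, from a control level that in L-428 was already lower than in L-1236. The FCER1A value did not pass in 10 of 21 alternatives. For FCER1G, FCRLA and FCRL1, FCRL2, FCRL3 and FCRL5 the difference between lines lay between -0.11 and 0.20 and did not pass.

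Before EBF1 was added, 6 of the 11 rows passed between the control cells of the lines, all lower in L-428. They were FCER2, FCER1A, FCER1G, FCGR2A, FCGR2B alone and the row annotated with FCGR2C and FCGR2B. Of all rows 47.9% passed in this comparison, 26.1% higher and 21.7% lower in L-428. FCER2, FCER1A, FCGR2A and the row annotated with FCGR2C and FCGR2B also met the 2-fold limit, beside 3.04% of all rows that were lower in L-428 by this limit. FCGR2B alone gave -0.95 for L-428 minus L-1236 (-1.09 to -0.81). No Fc receptor-like row passed, with differences between -0.16 and 0.13. These control arrays enter the EBF1 comparisons too, so the control values and the EBF1 differences of a row are not separate evidence.

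The 18 other symbols of the Fc receptor families gave 10 genes with a row of their own, a list drawn up with earlier results of these arrays known. In L-428, 1 of the 10 passed: TRIM21, the cytosolic antibody receptor, was higher with EBF1 by 0.32 (SE 0.066; limma adjusted p = 0.00724). In L-1236 none passed; at an unadjusted p under 0.05 it was 1, FCGR3A at 0.18 (adjusted p = 0.0991), and with limma's array weights 3 passed. FCRL6, the next in rank, differed by 0.10 there (adjusted p = 0.321). FCGRT, the neonatal IgG receptor that protects IgG from breakdown, differed by -0.038 in L-428 and 0.035 in L-1236, and FCRL4 by 0.081 and -0.045. The medians of the list were 0.025 in both lines, beside 0.0037 and 0.0080 for all rows. Over all rows, 4.34% passed in L-428 and 9.64% in L-1236. A row annotated with FCGR3B and FCGR3A together was higher with EBF1 in L-1236 by 0.22 (adjusted p = 0.0481). Between the control cells 3 of the 10 passed, beside 47.9% of all rows. L-428 minus L-1236 gave 1.15 for TRIM21, 0.24 for FCGRT and -0.23 for FCRLB.

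Along chromosome 1 the Fc receptor and Fc receptor-like genes form a row that RefSeq orders as FCRL5, FCRL4, FCRL3, FCRL2, FCRL1, FCER1A, FCRL6, FCER1G, FCGR2A, FCGR3A, FCGR2C, FCGR3B, FCGR2B, FCRLA and FCRLB, with other genes between them. This order was looked up after the values were seen. The rows with a lower L-428 control signal of at least 2-fold, FCER1A, FCGR2A and that of FCGR2C and FCGR2B, were not a single run in this order: FCRL6 and FCER1G lie between the first pair, with control differences of 0.11 and -0.19. FCGR3A, placed between FCGR2A and FCGR2C, differed between the control cells by -0.018 (-0.15 to 0.12) and with EBF1 in L-1236 by 0.18. The uncertain row of HSPA6, a heat shock gene between FCGR2A and FCGR3A, gave -0.99 between the control cells and -0.85 with EBF1 in L-1236. FCRLA, on the far side of FCGR2B, differed between the control cells by -0.065. FCRL6, FCER1G, FCGR3A and FCRLA had signals below the median of 7.26 in both lines. A gene without transcript in either line would show no difference, so their small differences do not describe the region. Whether the lines differ over the region as a whole was not tested.

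**Figure D4:**
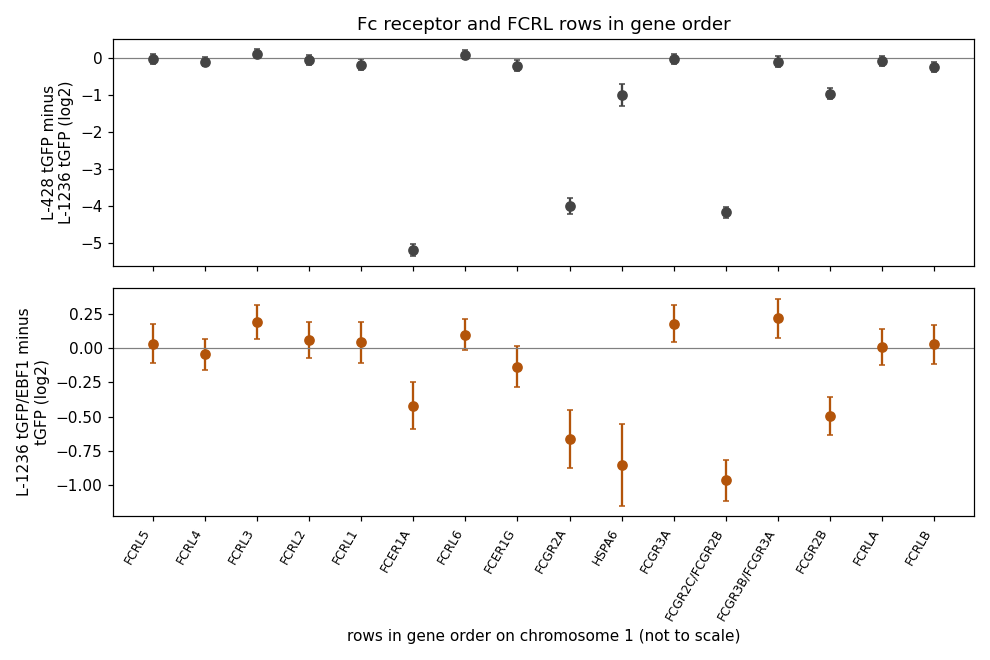
Log2 differences of the Fc receptor and Fc receptor-like rows, and of HSPA6 between them, in gene order on chromosome 1 (not to scale), for control cells of L-428 minus L-1236 (top) and for tGFP/EBF1 minus tGFP in L-1236 (bottom); bars are 95% intervals and the panels have different scales. FCER1A, FCGR2A and the FCGR2C and FCGR2B row lie far below 0 in the top panel, at -4.0 to -5.18, while FCRL6, FCER1G and FCGR3A between them lie near 0. HSPA6, also between them, lies at -0.99 in the top panel and at -0.85 in the bottom panel.

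FCER2 lies on chromosome 19 among other lectin genes, and its 4 nearest genes with a row on each side were PCP2, RETN, MCEMP1 and TRAPPC5 and CLEC4G, CLEC4M, CLEC4GP1 and EVI5L. None of the 8 passed in any of the 4 comparisons with limma. Their EBF1 differences lay between -0.11 and 0.12, where FCER2 gave 2.36 and 1.35, and none of the 8 had an adjusted p under 0.331 for EBF1. CLEC4G and CLEC4M, the lectin relatives beside it, had group means of 7.55 to 7.57 and of 6.29 to 6.37.

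Of 24 genes that bind, cleave or induce CD23, 23 had a row; they too were listed with earlier results known. In L-428, 1 rose and 2 fell with EBF1, beside 4.34% of all rows that passed in either direction. CD40, the B-cell receptor for T-cell help that induces CD23, was at 8.59, 8.59 and 8.40 without EBF1 and at 9.54, 9.63 and 9.56 with it, higher by 1.05 (SE 0.070; limma adjusted p = 2.08e-08). IL13, a cytokine that like interleukin 4 induces CD23, fell by 0.30 (adjusted p = 0.00692), and the integrin chain gene ITGAV, whose product is part of a CD23-binding receptor, fell by 0.45 (adjusted p = 0.00135). In L-1236, 5 rose and 2 fell, beside 9.64% of all rows that passed. STAT6, the transducer of interleukin 4 signals, rose by 0.39 (adjusted p = 0.00235), BCL6, a repressor of STAT6 target genes, by 0.40 (adjusted p = 0.00165) and CD40 by 0.30 (adjusted p = 0.00792). JAK3 and REL also rose, while IL13 fell by 0.39 (adjusted p = 0.000317) and RBPJ fell too. STAT6 differed in L-428 by 0.046 (adjusted p = 0.926). ADAM10, the protease that sheds CD23 from the surface, differed by -0.16 and -0.034 and CR2, a CD23 partner on B cells, by -0.078 and 0.056, with adjusted p from 0.546 to 0.903. The list medians were -0.034 in L-428 and 0.050 in L-1236, beside 0.0037 and 0.0080 for all rows. These counts moved with single arrays: without L-428 tGFP replicate 3 they were 8 and 11, without L-1236 tGFP/EBF1 replicate 1 or 2 the L-428 count was 5, and without L-1236 tGFP replicate 2 the L-1236 count was 4.

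Of 30 genes listed around ITAM and ITIM signalling, 28 had a row. Whether each of them, HCST included, acts behind these receptors was not tested. In L-428, 2 rose and 1 fell: the kinase gene FYN by 0.33 (adjusted p = 0.00531) and the adaptor HCST by 0.26 (adjusted p = 0.0161) were higher with EBF1, and INPP5D, which encodes the SHIP1 phosphatase that FCGR2B recruits, fell by 0.33 (adjusted p = 0.0106). In L-1236, 3 rose and 2 fell. Over all rows, 4.34% passed in L-428 and 9.64% in L-1236. PLCG1, a phospholipase downstream of SYK, rose by 0.67 (adjusted p = 2.85e-06), HCST by 0.56 (adjusted p = 4.65e-06) and the adaptor DOK1 by 0.26 (adjusted p = 0.036), whereas INPPL1, which encodes SHIP2, fell by 0.35 (adjusted p = 0.00432) and PTPN11 by 0.32 (adjusted p = 0.0241). INPP5D differed in L-1236 by 0.035 (adjusted p = 0.849). SYK itself lay between 6.57 and 6.73 on the arrays and differed by -0.038 and 0.049. The list medians were -0.031 and 0.032, beside 0.0037 and 0.0080 for all rows. Without L-428 tGFP replicate 3 the counts were 7 and 11. Without L-428 tGFP replicate 2 or L-428 tGFP/EBF1 replicate 1 the L-428 count was 1, and without L-1236 tGFP replicate 2 or 3 or L-1236 tGFP/EBF1 replicate 1 the L-1236 count was 3.

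The rows nearest to FCER2 over the 12 arrays were found by the root mean square of the differences from it, each row first centred on its own mean over the arrays, among 19157 rows of a single gene. The nearest were SEMA7A at 0.38, CCL22 at 0.48, CD274 at 0.58, CD40 at 0.65 and CD82 at 0.70 log2 units. SEMA7A had group means of 7.57 and 8.88 in L-428 without and with EBF1 and of 9.43 and 10.82 in L-1236. Its EBF1 differences of 1.31 and 1.40 were alike in the lines, where those of FCER2 were 2.36 and 1.35. CCL22 gave 1.03 and 1.53, CD274 0.91 and 0.63, CD40 1.05 and 0.30 and CD82 0.72 and 0.54. For each of the 5 rows the lowest group was L-428 tGFP and the highest L-1236 tGFP/EBF1, which the choice by likeness to FCER2 brings with it.

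**Figure D5:**
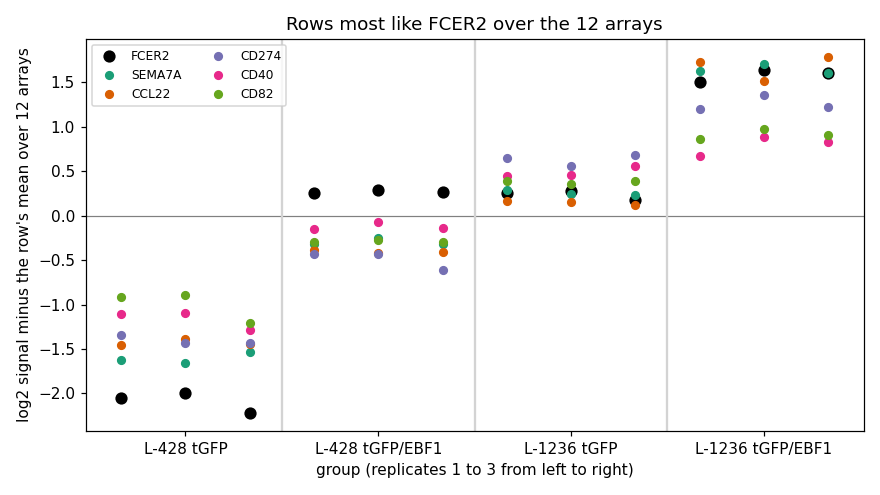
Log2 signal of FCER2 and of the 5 rows nearest to it, on each of the 12 arrays, as the distance from the mean of that row over the arrays; points are single arrays. In L-428 with EBF1 the FCER2 points lie above those of the other 5 rows, and in L-1236 without EBF1 among them.

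The EBF1 row, annotated with EBF1 and PDGFRB, gave a check of the labels: its group means went from 8.45 to 12.96 in L-428 and from 7.17 to 13.15 in L-1236, with every array on the side its label names. The 12 arrays had medians of 7.19 to 7.31 and interquartile ranges of 2.17 to 2.49, no pair was identical, and pairs within a group correlated over all rows at r = 0.992 to 0.997. The 7 Hodgkin cell markers had list means of 9.36 to 10.17 over the arrays, and IRF4 had group means from 11.76 to 11.95. Between the control cells 4 of the 7 were higher and 2 lower in L-428 than in L-1236, where 47.9% of all rows passed. TRAF1 was at 10.38 in L-428 and 7.43 in L-1236 control cells, and CCL22 at 7.07 and 8.65. With EBF1, 1 of the 7 was higher in L-428, and 2 were higher and 1 lower in L-1236. Over all rows, 4.34% and 9.64% passed for EBF1 in these lines. Of the 6 B-cell markers with a row, 1 was higher with EBF1 in L-428, 2 were higher and 1 lower in L-1236, and 2 were lower in L-428 than in L-1236 control cells. CD79A, a chain of the B-cell receptor, was higher with EBF1 by 0.23 in L-428 and by 1.18 in L-1236, where it reached 8.19. CD79B, its partner chain, was higher in L-1236 by 0.26. CD22, an inhibitory receptor of B cells, was at 6.38 in L-428 and 8.91 in L-1236 control cells and at 8.51 in L-1236 with EBF1. PAX5, the B-cell identity factor, was at 7.67 and 9.51 in the control cells, and MS4A1, which encodes CD20, had group means of 5.86 to 5.89. Among the 6 B-cell markers only CD22 passed as lower with EBF1 in L-1236. Like FCER1A and the FCGR2 rows, CD22 also had a higher L-1236 control signal. CD79A and CD79B went the other way with EBF1 there. The part of the B-cell markers in the FCER1A and FCGR2 values was not tested. The mean of the 7 monocyte and macrophage markers lay between 6.73 and 7.07, of the 6 T and NK cell markers, 1 of them higher with EBF1 in L-1236, between 6.57 and 6.80 and of the 4 dendritic cell markers between 6.20 and 6.40. Of the monocyte markers 1 was higher with EBF1 in L-1236, and 1 was higher and none lower in L-428 control cells than in L-1236. CD68 was at 9.87 in L-428 and 7.76 in L-1236 control cells. CSF1R was at 7.42 in L-1236 control cells and at 7.78 with EBF1. LYZ and CD163 had group means of 5.82 to 5.87 and 6.08 to 6.18. The part of the monocyte markers in the FCGR2A values was not tested.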

How the data were processed

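Signals were deposited as a table of 32321 rows by 12 arrays; how the authors summarized and normalized them, the log base and the array build are not stated (not given in the sources used). The deposited values lie between 4.38 and 14.27 and were read as a log2 scale from that range. The authors' comparisons used Bioconductor with an FDR of at most 5% and a fold change of at least 2, per the labels' design text. Rows were named from the platform annotation: 19158 rows have 1 symbol, 1388 several, and the rest none here. No per-sample column was left unused.

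Each row with a symbol (20546) was fitted with limma 3.58.1 (R 4.3.3), lmFit and eBayes, with 1 mean for each of the 4 groups, with Benjamini-Hochberg adjustment over all rows of a comparison. The 8 residual degrees of freedom were joined by 9.98 prior ones. Intervals are at 95% and come from this fit. No detection or background signal was used, so low levels have no lower bound, and the number of arrays limits the precision. The scripts were tested on simulated data.

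The genes and gene lists were chosen with earlier results of these data known. Named list genes were the 4 lowest p-values among those that passed in a line, or the 2 lowest where none passed, with others named as background to a receptor or after their values were seen; a gene with several rows was taken by its brightest row. Alternatives covered scaling, filters on dim rows, the variance model, array weights, fits of 1 line, a replicate block, thresholds and leaving out arrays. Sequences are from RefSeq (GRCh38.p14), read with Python 3.11.15.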

Additional observations from a re-analysis of the deposited data

Results flagged for a closer look

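The EBF1 difference in L-428 minus that in L-1236 was tested as an interaction term in the limma fit. Only the 11 rows and the list genes named by low p-values were looked at here. Among them 10 rows passed, beside 5.16% of all rows. Rows named elsewhere, such as CD79A, CD22, PAX5, CCL22 and HSPA6, also passed and are not listed here. For FCER2 it was 1.01, from 2.36 in L-428 and 1.35 in L-1236. For the row annotated with FCGR2C and FCGR2B it was 1.04, from 0.071 and -0.97. For FCGR2A it was 0.64, from -0.023 and -0.67. For FCGR2B alone it was 0.58, from 0.085 and -0.49. For FCER1A it was 0.42, from 0.00048 and -0.42, and it did not pass in 10 of 21 alternatives. For CD40 it was 0.74 (limma adjusted p = 0.000142), from 1.05 and 0.30. For BCL6 it was -0.67 (adjusted p = 0.000886), from -0.27 and 0.40. For PLCG1 it was -0.82 (adjusted p = 4.51e-05), from -0.15 and 0.67. For FYN it was 0.46 (adjusted p = 0.00548), from 0.33 and -0.13. For INPP5D it was -0.36 (adjusted p = 0.044), from -0.33 and 0.035. The members among these rows were chosen with these results known, and groups of 3 arrays were not examined for outlying samples. CD40, BCL6, PLCG1, FYN and INPP5D were picked by low p-values for EBF1 within a line. That comparison is part of the difference between lines, so their adjusted p-values here are descriptions too.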

How the results depend on the processing

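No result changed sign among those that passed. FCER2 passed in both lines under every alternative that was run, with differences of 2.29 to 2.41 in L-428 and 1.30 to 1.39 in L-1236. Counts of rows that passed moved more than single values, and the cause was not tested. In L-428, 2 of the 11 rows passed with quantile normalization and with array weights, and 1 to 2 without single arrays. The number was also 2 without both L-428 tGFP replicate 3 and L-1236 tGFP/EBF1 replicate 1. Each of these 2 arrays had the lowest interquartile range of its own group. With dim rows left out, 3 rows were tested, and all 3 passed in L-1236, in the difference between lines and between control cells. This filter used the mean of each row over the 12 arrays. FCER1A and the row annotated with FCGR2C and FCGR2B stayed in through their high L-1236 values. Nothing is therefore read from these 3 rows. At the 2-fold limit 1 passed in L-1236 and 2 in the difference between lines, where 3 passed with every row tested and 3 at an adjusted p of 0.01. Without single arrays the counts were 5 to 6 in L-1236, 4 to 5 for the difference and 5 to 7 between control cells. Other Fc receptor genes passing numbered 2 with array weights and 0 at 2-fold in L-428, and 3 with array weights and 1 without both arrays in L-1236; without single arrays they stayed at 1 and 0. CD23 partners passing in L-428 were 10 with quantile normalization, 5 with dim rows left out, 12 with array weights, 9 without both arrays, 1 at 2-fold and 3 to 8 without single arrays. In L-1236 they were 14 with array weights, 0 at 2-fold, 4 at an adjusted p of 0.01 and 4 to 11 without single arrays. ITAM and ITIM genes passing in L-428 were 10 with array weights, 8 without both arrays, 0 at 2-fold, 1 at an adjusted p of 0.01 and 1 to 7 without single arrays. In L-1236 they were 10 with quantile normalization, 3 with median centring, 3 with every row tested, 16 with array weights, 9 without both arrays, 0 at 2-fold, 3 at an adjusted p of 0.01 and 3 to 11 without single arrays. The estimation of array weights stopped before it converged. Over all rows, 538 were higher and 354 lower with EBF1 in L-428, and 345 and 153 with median centring; in L-1236 the split was 759 to 1222, and 1445 to 1618 with quantile normalization. STAT6 letters were found in 2 windows of the genes rather than 3 with the 250 bases before the start alone.

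Deviations of same-numbered samples of different groups correlated at r from -0.21 to 0.28. Differently numbered samples were not compared and groups held 3 arrays, so these values cannot decide whether the numbers pair the samples. With the replicate number as a block, members passing numbered 1 in L-428, 5 in L-1236, 5 for the difference and 6 between control cells. The block gave 1 and 0 for the other Fc receptor genes, 4 and 7 for the CD23 partners and 3 and 5 for the ITAM and ITIM genes.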

Other observations

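HSPA6, a heat shock gene that lies between FCGR2A and FCGR3A on chromosome 1, was named after its values were seen. Its group means were 7.46 and 7.37 in L-428 without and with EBF1 and 8.45 and 7.60 in L-1236. The difference was -0.85 in L-1236 (SE 0.14; limma adjusted p = 0.000483) and -0.090 in L-428. The FCGR2 region is duplicated and holds a near-identical copy of HSPA6, so the row is uncertain.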
